A study of Mus musculus with 2 samples.

Results

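Collagen genes were taken from the single-cell expression table of the mouse esophagus by name: every symbol of the form Col, digits, a, digits, except Col17a1. Of 18595 genes in the table, 34 matched, and the 27 with at least 20 unique molecular identifiers (UMIs, 1 per captured RNA molecule) over both libraries were kept. Col11a2, with 28 UMIs, lay just inside this limit. Col4a4, with 19, lay just outside it, together with Col26a1, Col9a3, Col8a2, Col25a1, Col24a1 and Col28a1.

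The mice were a hybrid of C57BL/6J and BALB/c, and the esophagus was taken with the muscle layer removed before trypsin digestion, and the 3′ ends of polyadenylated RNA were counted in droplets. The control library was Keap1 floxB/floxB, so that both genotypes carry the floxed alleles, and the Keap1_cKO library was K5CreERT2::Keap1 floxB/floxB, in which an inducible Cre recombinase is driven by the keratin 5 promoter, a promoter of basal keratinocytes. The sources used here do not state the animals' age, how many were pooled, or the time after induction. With 1 library per genotype there was no replicate error and no test was made. All intervals below are 95% intervals that cover counting error only, and a difference between the libraries cannot be told apart from a difference between the animals or preparations.

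Collagens are triple helices of 3 chains, and the genes fall into families by what the helices build. Fibrillar chains (types I, III and V here) form the banded fibers of the connective tissue, and fibril-associated chains sit on their surface. Type IV chains form the sheet of the basement membrane under epithelium and around vessels, type VI forms beaded filaments, type VII anchors the epithelial basement membrane to the tissue below, and types XV and XVIII are multiplexins of vessel and epithelial basement membranes. In the esophagus, fibroblasts of the lamina propria are known as the main source of the fibers, and keratinocytes and endothelium add chains of their own basement membranes.

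The control library held 2472 cells and 30501227 UMIs (median 11293.5 per cell) and the Keap1_cKO library 2381 cells and 26036522 UMIs (median 8193 per cell). The deposited annotation gives 19 clusters and a cell type for each. Of the cell barcodes, 5 occurred in both libraries. All 6 fixed fibroblast markers (Dcn, Lum, Pdgfra, Dpt, Fbln1, Mfap5) were present in clusters 1 and 5, at a summed level of 20713 and 18473 counts per 1000000 UMIs (CPM) in the control library and 17836 and 15995 CPM in the Keap1_cKO library. Endothelial cluster 8 carried all 5 blood endothelial markers, at 3607 and 3852 CPM, and cluster 18 was led by lymphatic genes (Reln, Mmrn1, Flt4). Cells annotated as fibroblast in cluster 6 had medians of 1207 and 772 UMIs and were kept apart for that reason, although their collagen share, 1.4999% and 4.34% of UMIs, differed in the same direction as in clusters 1 and 5. Doublets were not removed.

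A few collagens are shown here by the start of their promoters, because they stand for the patterns that follow: fibrillar genes and Col8a1 that were higher in the fibroblasts of the Keap1_cKO library, Col4a5, Col4a6 and Col23a1 that were lower there, and Col7a1 of the keratinocytes. Each run is 150 bases, 5′ to 3′ on the gene's strand, and ends at the base before the first annotated base of the gene (RefSeq promoters on GRCm38.p6, which is mm10). Capitals mark TATAAA or GGGCGG on either strand.
Col3a1, chr1:45311388-45311537, plus strand: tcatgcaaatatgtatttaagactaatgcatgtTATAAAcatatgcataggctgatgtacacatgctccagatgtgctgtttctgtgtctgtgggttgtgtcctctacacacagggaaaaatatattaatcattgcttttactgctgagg
Col5a1, chr2:27886275-27886424, plus strand: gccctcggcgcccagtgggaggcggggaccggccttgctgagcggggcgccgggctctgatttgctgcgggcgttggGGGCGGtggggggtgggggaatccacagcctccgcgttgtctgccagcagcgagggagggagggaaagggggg
Col8a1, chr16:57754738-57754887, minus strand: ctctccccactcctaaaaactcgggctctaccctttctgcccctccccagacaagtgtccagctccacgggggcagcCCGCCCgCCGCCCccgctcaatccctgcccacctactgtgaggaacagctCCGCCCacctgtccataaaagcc
Col4a5, chrX:141475235-141475384, plus strand: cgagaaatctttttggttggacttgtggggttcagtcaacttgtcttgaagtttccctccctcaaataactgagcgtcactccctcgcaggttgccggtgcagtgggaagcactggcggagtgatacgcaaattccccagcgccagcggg
Col4a6, chrX:141474077-141474226, minus strand: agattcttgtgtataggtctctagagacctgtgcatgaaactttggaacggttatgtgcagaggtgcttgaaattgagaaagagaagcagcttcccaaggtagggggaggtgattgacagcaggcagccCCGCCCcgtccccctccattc
Col7a1, chr9:108953436-108953585, plus strand: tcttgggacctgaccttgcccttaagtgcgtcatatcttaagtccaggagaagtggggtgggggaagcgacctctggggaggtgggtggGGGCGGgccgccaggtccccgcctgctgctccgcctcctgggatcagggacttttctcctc
Col23a1, chr11:51289770-51289919, plus strand: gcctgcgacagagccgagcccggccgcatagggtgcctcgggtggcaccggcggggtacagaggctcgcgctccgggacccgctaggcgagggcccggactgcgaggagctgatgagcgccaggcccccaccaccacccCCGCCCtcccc

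Over the 250 bases before the start, 23 of the 27 collagens had RefSeq entries, with 25 promoters in all. The GC box GGGCGG was found on either strand in 17 of these 25 (68%), against 32.7% of all 32851 promoters of the same length. CCAAT was found in 8 (32%, against 33.8%), TATAAA in 3 (12%, against 12.4%), the AP-1 letters TGANTCA in 1 (4%, against 6.75%), and the antioxidant response element core TGACNNNGC in 4 (16%, against 10.2%), namely Col4a2, Col6a2, Col6a5 and Col7a1. These motifs were not masked for overlap with each other, and a match is a description of letters. The type IV genes lie in head-to-head pairs: the RefSeq starts of Col4a1 and Col4a2 on chromosome 8 lie 21 bases apart, with overlapping first exons, and those of Col4a5 and Col4a6 on chromosome X lie 1343 bases apart. The RefSeq start of Col4a5 is 141475419, whereas its run above ends before an earlier annotated start, 141475385.

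Most collagen RNA lay in the fibroblasts of both libraries. Clusters 1 and 5 held 33.0% of control cells and 94.5% of the 312086 collagen UMIs of that library, and 13.1% of Keap1_cKO cells and 91.01% of 343700 collagen UMIs. Endothelial clusters 8 and 18 held 0.289% of control and 3.34% of Keap1_cKO collagen UMIs, with 80 and 218 cells. Epithelial cells held 2.20% and 1.87%. These shares follow how many cells of each kind were captured as well as how much collagen RNA each held. With 1 library per genotype the error of the former cannot be measured. Cluster 6, also annotated as fibroblast, held 2.21% and 1.88% of collagen UMIs, with 185 and 115 cells. In its median cell collagen made up 1.76% and 6.00% of UMIs. Counted with every cell weighted equally, clusters 1 and 5 held 83.1% and 67.1%, with the cells of cluster 6 counted in the remainder.

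**Figure D1:**
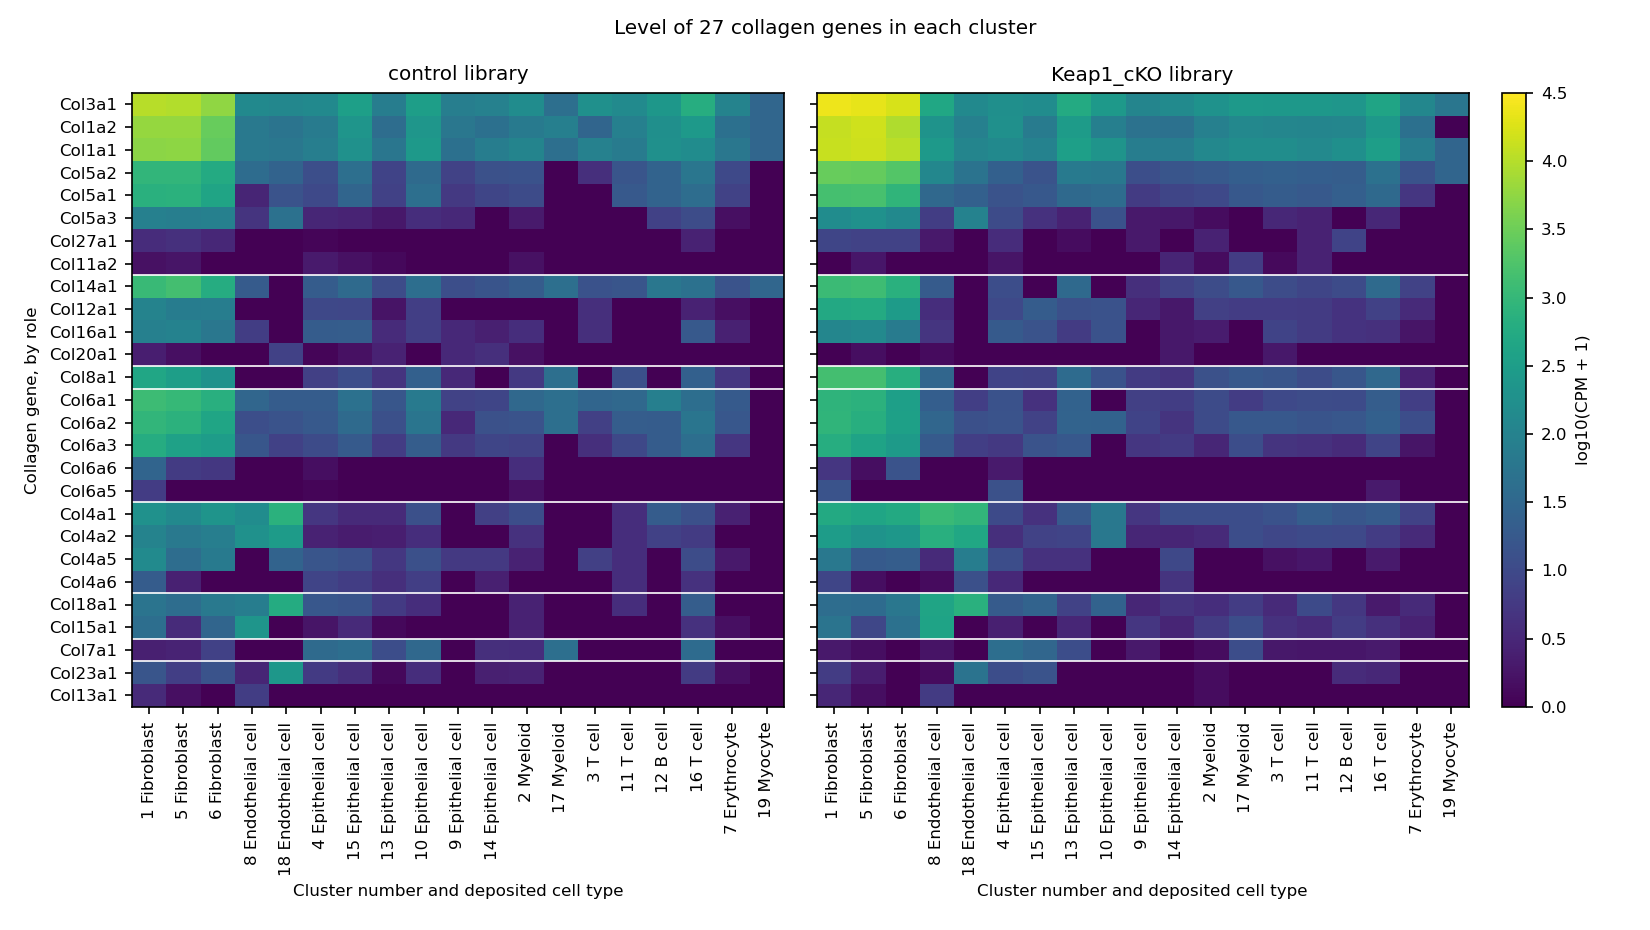
Level of each of the 27 collagen genes, as log10(CPM + 1) of the summed UMIs, in each of the 19 clusters of the control library (left) and the Keap1_cKO library (right); white lines separate the role groups and cluster labels carry the deposited cell type. The fibrillar genes are bright in clusters 1, 5 and 6, Col4a1, Col4a2, Col15a1 and Col18a1 are brightest in endothelial clusters 8 or 18, and Col7a1 is seen in epithelial clusters 4 and 15.

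By level over both libraries, Col3a1 (238676 UMIs), Col1a2 (141576) and Col1a1 (133585) were the most abundant collagens, followed by Col5a2 (25454) and Col14a1 (19914). The other members ranged down to Col11a2. Of the 27, 14 were highest in fibroblast cluster 1 or 5 at 100 CPM or more, and among the remaining members Col4a1 (980 CPM), Col4a2 (612 CPM) and Col15a1 (378 CPM), all counted over both libraries, were highest in endothelial cluster 8. Cluster 8 had 53 control and 203 Keap1_cKO cells, so its pooled levels come mostly from the Keap1_cKO library. In the control library alone, Col4a1 was lower in cluster 8 than in cluster 1 or cluster 18, and Col4a2 lower than in cluster 18. Col18a1 was highest in the 42 cells of lymphatic endothelial cluster 18 (657 CPM, against 374 CPM in cluster 8), and so was Col23a1 (140.5 CPM). Col7a1 was highest in epithelial cluster 15 (39.1 CPM on 75 UMIs), with nearly the same level in cluster 4 (37.3 CPM on 340 UMIs). Each of Col27a1, Col13a1, Col20a1 and Col11a2 stayed at or below 6.17 CPM in its highest cluster. A 3′ UMI count does not grow with transcript length, but capture can differ between genes, so this order is that of counted molecules.

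In both fibroblast clusters the collagens as a group were at about a doubled level in the Keap1_cKO library. In cluster 1 (545 and 187 cells) collagen made up 2.88% of control UMIs and 6.12% of Keap1_cKO UMIs, a 2.13-fold ratio (log2 1.09, interval 1.08 to 1.10). In cluster 5 (271 and 126 cells) it made up 2.75% and 6.11%, a 2.22-fold ratio (log2 1.15, interval 1.14 to 1.17). The difference was spread over cells. The median cell of cluster 1 had 2.64% and 5.98%, that of cluster 5 had 2.58% and 6.19%, and 148 of 187 Keap1_cKO cells in cluster 1 (79.1%) and 108 of 126 in cluster 5 (85.7%) lay above the 90th percentile of the control cells of the same cluster. Cells of a library are not replicates, so these shares describe the 2 libraries.

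**Figure D2:**
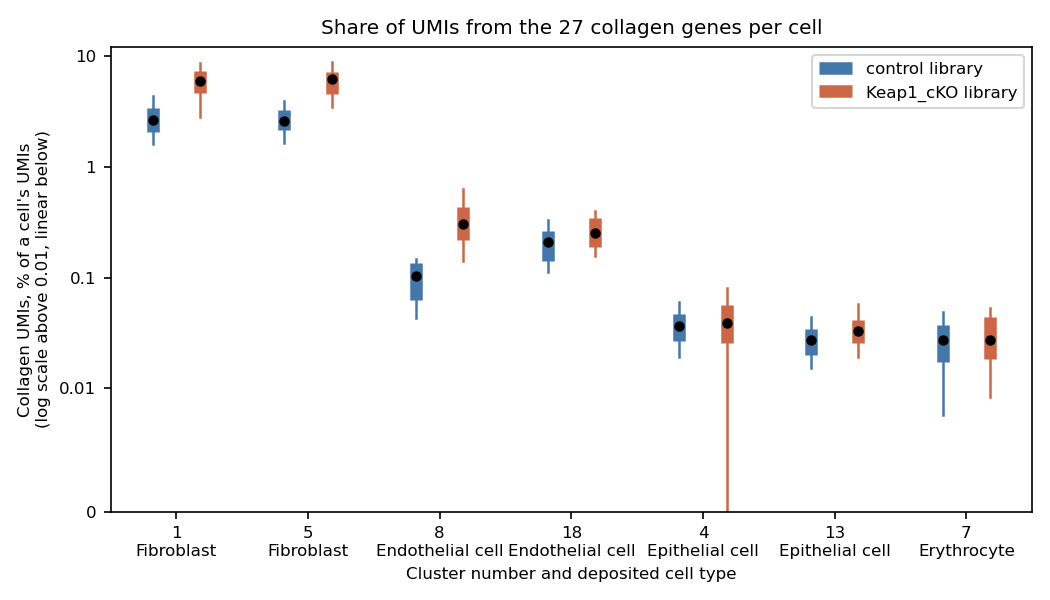
Share of each cell's UMIs from the 27 collagen genes, in percent, for 7 clusters in the control (blue) and Keap1_cKO (orange) libraries; dots are medians, thick bars the 25th to 75th and thin lines the 10th to 90th percentiles, on an axis that is logarithmic above 0.01 and linear below. Clusters 1, 5 and 8 are shifted upward in the Keap1_cKO library, whereas cluster 7 (erythrocytes) is at 0.0274% and 0.0276% in the median cell.

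Member by member, 12 of the 24 collagens with at least 20 UMIs in cluster 1 were at least 1.5-fold higher and 4 at least 1.5-fold lower in the Keap1_cKO library. Across all 11522 genes tested in that way, 13.9% were as much higher and 16.1% as much lower. The 12 include Col6a5, most of whose Keap1_cKO UMIs came from 1 cell, and 11 of the 23 other members were higher. In cluster 5, 12 of 21 were higher and 3 lower, where 13.2% and 18.2% of all 10549 genes were. The median collagen log2 ratio was 0.57 in cluster 1 and 1.07 in cluster 5, beside −0.055 and −0.086 over all genes. The ratios differed by role.

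All 7 fibrillar members counted in the 2 clusters were at least 1.5-fold higher, and together they went from 2.37% to 5.46% of UMIs in cluster 1 and from 2.30% to 5.52% in cluster 5. Col3a1, the type III chain, was at 10477 CPM in the control library and 24305 CPM in the Keap1_cKO library in cluster 1 (log2 1.21, 1.199 to 1.23), and at 9683 and 21711 CPM in cluster 5 (log2 1.16, 1.15 to 1.18). Col1a1 and Col1a2, which build the type I heterotrimer, were at 5316 and 13008 CPM and at 6171 and 12879 CPM in cluster 1, with log2 ratios of 1.29 and 1.06. In cluster 5 their ratios were 1.40 and 1.25. Col5a2, a type V chain that nucleates fibrils, had the highest ratio among abundant fibrillar genes in cluster 1, 922 and 2787 CPM (log2 1.60, 1.55 to 1.65). Its partners Col5a1 and Col5a3 had 1.04 and 0.75 in cluster 1 and 1.06 and 1.17 in cluster 5. Col27a1, a low fibrillar gene, had 18 and 22 UMIs in cluster 1.

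Of the fibril-associated group, Col12a1 stood apart from the rest. This gene, which encodes a chain that binds the surface of type I fibrils, was at 101 and 517 CPM in cluster 1 (670 and 1476 UMIs, log2 2.36, 2.22 to 2.49) and at 75.8 and 561 CPM in cluster 5 (log2 2.89, 2.70 to 3.08). Its relative Col14a1 was at 1098 and 1144 CPM (log2 0.059) and at 1453 and 1243 CPM (log2 −0.23). Col16a1 had log2 ratios of 0.38 and 0.37, within the 1.5-fold limits in both. Col20a1 had fewer than 20 UMIs in each cluster. The share of cells with a Col12a1 UMI was 37.8% and 78.1% in cluster 1; thinned to 1000 UMIs per cell, it was 6.97% and 32.4%. The background for such a share was taken in endothelial cluster 8, with 0 of 53 control cells (an exact interval up to 6.72%) and 1.97% of Keap1_cKO cells at median depths of 9829 and 13573 UMIs.

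Col8a1, a short-chain collagen of mesh-like sheets, was higher by as much as the type V chains or more: 453 and 1414 CPM in cluster 1 (log2 1.64, 1.57 to 1.71) and 328 and 1435 CPM in cluster 5 (log2 2.13, 2.04 to 2.23). In both clusters it was among the 4 largest ratios of collagens with at least 50 UMIs.

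The type VI genes, the most abundant group after the fibrillar one in cluster 1, did not follow the fibers, and neither did Col14a1, Col16a1, the multiplexins or the transmembrane members in that cluster. Summed over its members, type VI made up 0.274% and 0.238% of UMIs in cluster 1 (log2 −0.21) and 0.218% and 0.185% in cluster 5 (log2 −0.24), where the all-gene medians were −0.055 and −0.086. Of the 3 main chains in cluster 1, Col6a1 went from 1206 to 852 CPM (log2 −0.50), Col6a2 from 900 to 865 CPM (log2 −0.058) and Col6a3 from 603 to 641 CPM (log2 0.089). In cluster 5 the log2 ratios of Col6a1, Col6a2 and Col6a3 were −0.40, −0.24 and 0.13. The small member Col6a6 had 181 and 12 UMIs in cluster 1 (log2 −2.70, −3.68 to −1.86) and 19 and 1 in cluster 5. Col6a5 had 35 and 38 UMIs in cluster 1, of which 33 in the Keap1_cKO library came from 1 cell, so no ratio of it alone is read.

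**Figure D3:**
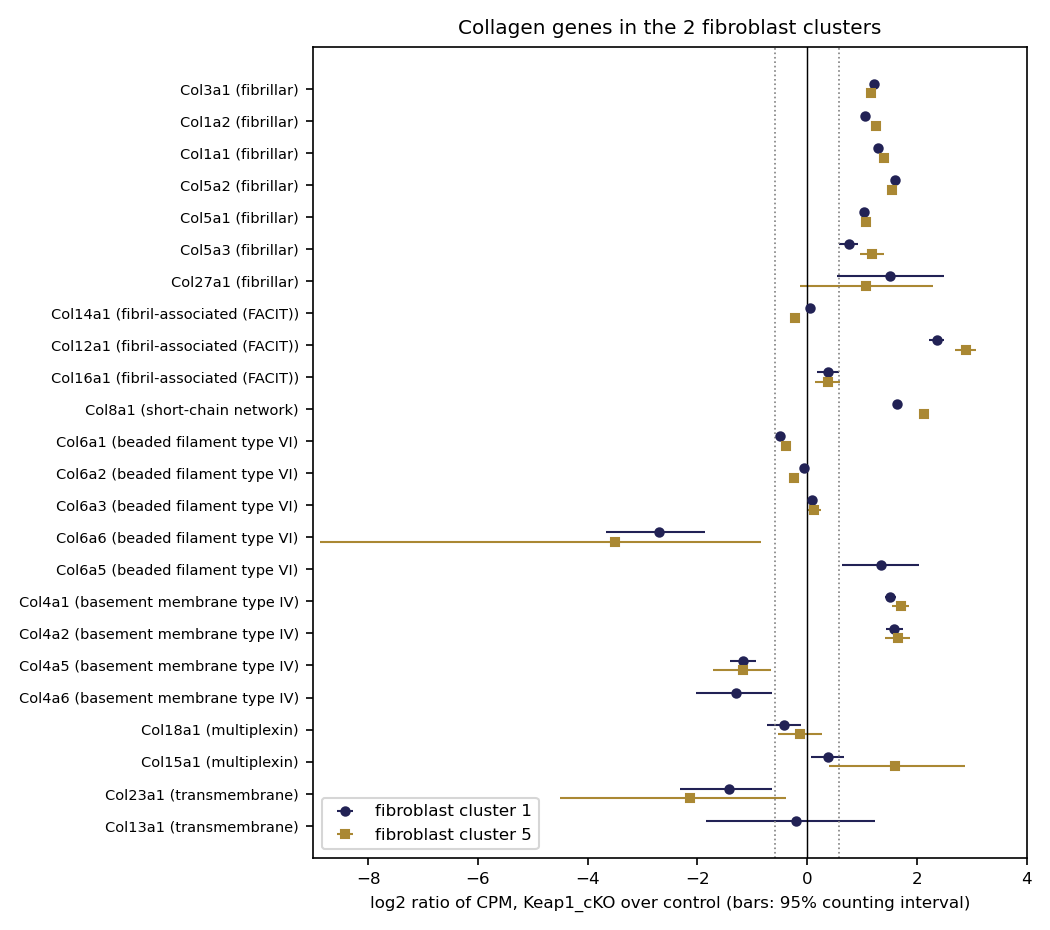
Log2 ratio of CPM, Keap1_cKO over control, for each collagen with at least 20 UMIs, in fibroblast cluster 1 (circles) and cluster 5 (squares); bars are 95% counting intervals and dotted lines mark 1.5-fold. The fibrillar genes, Col12a1, Col8a1, Col4a1 and Col4a2 lie to the right of the dotted line in both clusters, and Col6a6, Col4a5 and Col23a1 to the left.

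Type IV split by gene pair. Col4a1 and Col4a2, the chains of the ubiquitous basement membrane network, were at 188 and 538 CPM and at 103 and 309 CPM in cluster 1 (log2 1.52 and 1.59), and at 135 and 442 CPM and 66.3 and 208 CPM in cluster 5 (log2 1.71 and 1.65). Col4a5 and Col4a6, the pair that builds another type IV network in basement membranes of epithelium and smooth muscle, lay the other way. Col4a5 went from 142 to 63.1 CPM (log2 −1.17, −1.41 to −0.94) and Col4a6 from 18.99 to 7.71 CPM (log2 −1.30, −2.03 to −0.64) in cluster 1. Col4a5 was at 39.9 and 17.7 CPM in cluster 5 (log2 −1.17). In cluster 1 the 2 genes of each head-to-head pair had ratios of the same sign. In cluster 1 Col4a1 UMIs were seen in 78.0% and 94.6% of cells (15.8% and 44.9% after thinning to 1000 UMIs), and Col4a5 UMIs in 67.7% and 44.4% (13.4% and 5.41%).

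The multiplexins and transmembrane collagens were low in fibroblasts. Col15a1 was at 40.5 and 52.6 CPM in cluster 1 (log2 0.37), and Col18a1 at 52.0 and 38.9 CPM (log2 −0.42). In cluster 5 Col15a1 had 10 and 18 UMIs and was among the members at least 1.5-fold higher. Col23a1, a transmembrane collagen, was at 14.2 and 5.26 CPM in cluster 1 (94 and 15 UMIs, log2 −1.43, −2.32 to −0.64) and had 22 and 3 UMIs in cluster 5. Col13a1 had 16 and 6 UMIs in cluster 1. Col7a1 had 10 and 3 UMIs in cluster 1 and 7 and 1 in cluster 5.

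Among the genes that fold, trim and bind collagen, members of each list lay on both sides, with more of them higher than lower in the Keap1_cKO library. Of the folding and modification list, 18 of 19 genes could be counted in cluster 1, with 8 at least 1.5-fold higher and 3 at least 1.5-fold lower, and in cluster 5 7 were higher and 2 lower of 18. These are 44.4% higher and 16.7% lower in cluster 1, beside 13.9% and 16.1% of all genes there, and 38.9% and 11.1% in cluster 5, beside 13.2% and 18.2%. P4ha3, a prolyl hydroxylase subunit, was at 27.6 and 139 CPM in cluster 1 (log2 2.33), Plod2, the lysyl hydroxylase of telopeptides, at 133 and 329 CPM (log2 1.31), and Serpinh1, the collagen chaperone HSP47, at 951 and 1524 CPM (log2 0.68). Ppib, a prolyl isomerase of the endoplasmic reticulum, was lower, 639 and 378 CPM (log2 −0.76). Of 13 processing and assembly genes in the list, 6 were higher and 3 lower in cluster 1, and 5 and 3 of 12 in cluster 5, which are 46.2% higher and 23.1% lower, and 41.7% and 25%. Sparc, a collagen-binding matrix protein, was at 6065 and 11424 CPM (log2 0.91), Dcn, the proteoglycan decorin, at 13199 and 9782 CPM (log2 −0.43) and Pcolce2, an enhancer of procollagen cleavage, at 1241 and 443 CPM (log2 −1.49). Tll1, a procollagen C-proteinase of the tolloid family, had 59 and 5 UMIs. Of the collagen receptor list 4 of 8 genes were higher and 1 lower in cluster 1, and 4 and 1 of 7 in cluster 5, which are 50% higher and 12.5% lower, and 57.1% and 14.3%. The abundant receptors lay within the 1.5-fold limits: Itgb1, the shared integrin subunit, was at 424 and 566 CPM (log2 0.42) and Ddr2, a receptor of fibrillar collagen, at 333 and 345 CPM (log2 0.050) in cluster 1. The receptors with the largest ratios there were low genes, Itga2 with 20 and 25 UMIs (log2 1.54) and Ddr1, a receptor tyrosine kinase, with 76 and 89 (log2 1.45). Itga11, the only lower one, was at 23.7 and 9.11 CPM (log2 −1.38).

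Along with the collagens, 2 of the 6 measured markers of pericytes or smooth muscle were higher in the fibroblasts. Acta2 was at 2.56 and 26.3 CPM and Tagln at 3.62 and 38.9 CPM in cluster 1, against Col1a1 at 5316 and 13008 CPM. The other 4 markers (Rgs5, Notch3, Cspg4, Kcnj8) summed to 11.8 and 14.7 CPM in cluster 1 and to 4.75 and 5.75 CPM in cluster 5, and the whole list to 17.9 and 79.9 CPM (5 and 6 of 6 above 0) and to 9.77 and 88.0 CPM (5 and 4 of 6). Other lists differed too. Keratinocyte markers were summed at 761 and 490 CPM in cluster 1, myeloid markers at 81.8 and 174 CPM (5 and 6 of 6 above 0) and T cell markers at 42.4 and 133 CPM (5 of 5 in each). In cluster 5, myeloid markers were at 132 and 299 CPM, T cell markers at 3.17 and 49.6 CPM and skeletal muscle markers at 18.5 and 218 CPM. Their part in the result was not tested.

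In endothelial cluster 8, with 53 and 203 cells, the collagens made up 0.104% of control UMIs and 0.390% of Keap1_cKO UMIs (log2 1.90, 1.78 to 2.03), and 11 of 14 counted members were at least 1.5-fold higher and 0 lower, beside 26.1% and 9.84% of all 10055 genes. Their median log2 ratio was 1.75, and that of all genes 0.17. In the median cell the share was 0.104% and 0.305%, and 181 of 203 Keap1_cKO cells (89.2%) lay above the 90th percentile of the control cells.

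The abundant members here were chains of the vessel basement membrane. Col4a1 was at 156 CPM (83 UMIs) in control cells and 1136 CPM (3205 UMIs) in Keap1_cKO cells (log2 2.87, 2.55 to 3.20). Col4a2 was at 192 and 691 CPM (log2 1.85, 1.56 to 2.15), and Col18a1, whose C-terminal fragment is endostatin, at 78.9 and 430 CPM (log2 2.45, 2.002 to 2.93). Col15a1 was at 222 and 408 CPM (log2 0.88, 0.60 to 1.17). A Col4a1 UMI was found in 64.2% and 91.1% of cells, and in 11.5% and 59.2% at a depth of 1000 UMIs. Genes that overlap the end of Col4a1 and of Col18a1 on the other strand (Gm15418 and Slc19a1) are annotated, and whether counting used strand is not stated.

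Fibrillar members of cluster 8 were carried in part by 2 of its Keap1_cKO cells. Those 2 cells held UMIs of all 6 fibroblast markers and 1860 of the 11005 collagen UMIs. Leaving them out, an analysis added once the values were known, took the collagen share to 0.329% (log2 1.66) and the number at least 1.5-fold higher from 11 to 8, with 2 lower. The share of all genes was not counted without these cells. Col3a1 then had 135 and 200 CPM (log2 0.57) in place of a log2 ratio of 1.82, and Col1a2 had log2 0.45 in place of 1.65. Col1a1 and Col5a2 stayed past 1.5-fold, with log2 ratios of 1.11 (0.60 to 1.66) and 1.42 (0.76 to 2.15). Col4a1, Col4a2, Col18a1 and Col15a1 had 2.87, 1.86, 2.46 and 0.88 without them. Col8a1 had 0 and 85 UMIs, at least 5.35-fold higher with the control set to 3 counts, and 61 UMIs remained in the other Keap1_cKO cells. Col5a1 had 1 and 92 UMIs, with a log2 ratio of 4.12 and an interval of 1.60 to 9.44. Of the pericyte or smooth muscle list, summed at 776 and 125 CPM, 2 and 4 of 6 measured markers were above 0. Rgs5, Notch3, Cspg4 and Kcnj8 were at 0 or 1 UMI in each library, Acta2 was at 1.88 and 34.4 CPM, and Tagln at 774 and 90.02 CPM. Markers of other cells also differed between the libraries in this cluster: myeloid markers were summed at 1664 and 514 CPM (6 of 6 above 0 in each), T cell markers at 69.5 and 554 CPM (5 of 5 in each) and erythrocyte markers at 734 and 1910 CPM (5 of 5 in each). Their part in the result was not tested.

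**Figure D4:**
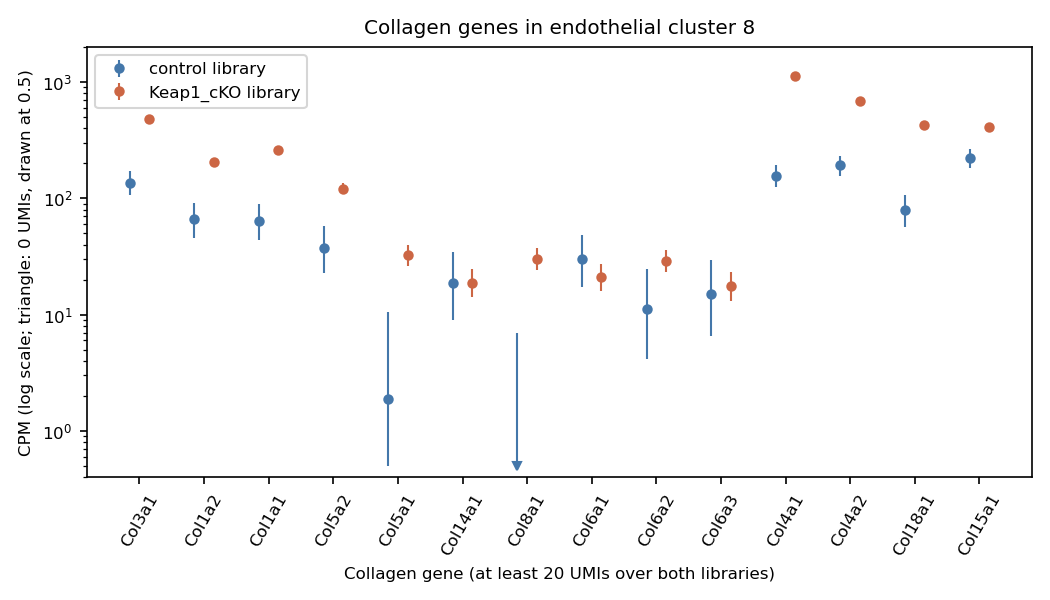
CPM of each collagen with at least 20 UMIs in endothelial cluster 8, on a logarithmic axis, for the control (blue, 53 cells) and Keap1_cKO (orange, 203 cells) libraries; bars are 95% Poisson intervals and the triangle marks 0 UMIs. Col4a1, Col4a2, Col18a1 and Col15a1 are separated between the libraries by more than their counting intervals, and Col14a1 and Col6a3 are not.

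In lymphatic cluster 18 (27 and 15 cells) Col4a1 was at 753 and 904 CPM and Col18a1 at 590 and 715 CPM. With 37 and 9 UMIs, Col23a1 was at 242 and 51.5 CPM there, the highest level of that gene in any cluster. At these cell numbers no change is read from the cluster.

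Keratinocytes held few collagen molecules. In cluster 4 (313 and 93 cells), collagen made up 0.0499% and 0.0720% of UMIs, and the erythrocytes of cluster 7, which are not known to make collagen and serve as the background, held 0.0283% and 0.0308%. Counted per cell, these were 10.4 and 20.2 collagen UMIs in cluster 4 and 3.05 and 3.11 in cluster 7. The most collagen-rich cell of cluster 4 held 345 collagen UMIs and all 6 fibroblast markers in the control library, and 749 of 1880 collagen UMIs and 5 of the 6 markers in the Keap1_cKO library. Without these 2 cells, an analysis added once the values were known, the shares were 0.0448% and 0.0440%. Among UMIs of Col1a1, Col1a2 and Col3a1 in cluster 4, Col3a1 made up 46.2% and Col1a2 25.5% in the control library, against 47.7% and 28.1% in cluster 1 and 49.5% and 21.5% in cluster 7. In the Keap1_cKO library they were 35.8% and 36.7%, against 48.4% and 25.7% in cluster 1, and without the richest cells 48.1% and 21.0%.

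Other collagens were scaled per 1000 UMIs of these 3 genes in the same cells. The 3 genes had 1893 UMIs in control cluster 4 and 145718 in cluster 1, so a gene not confined to fibroblasts can lie higher in cluster 4. The share of all genes that do so was not counted. The intervals leave out the counting error of the 3 genes, which had 396 and 301 UMIs in cluster 7. With separated intervals, Col7a1, Col16a1, Col18a1, Col4a5, Col4a6, Col23a1, Col12a1, Col4a1, Col6a2 and, on 7 and 2 UMIs, Col11a2 lay above cluster 1 in both libraries. Of these, Col7a1, Col16a1 and Col4a5 also lay above the interval of cluster 7 in both. Col12a1, Col18a1 and Col4a6 did so in the control library only, and Col23a1 in the Keap1_cKO library only. Col7a1 had 122 in control cluster 4 (106 to 138), 0.069 in cluster 1 and 0 in cluster 7 (up to 9.32). Col16a1 had 66.03 (55.0 to 78.7) against 4.08 in cluster 1, Col18a1 53.9 against 2.37, Col4a5 48.6 against 6.47, Col12a1 29.6 against 4.60, Col4a6 25.4 against 0.865 and Col23a1 16.4 against 0.645. Col4a1 was nearer, at 14.3 against 8.56 in the control library and 18.99 against 10.7 in the Keap1_cKO library. Its intervals overlapped those of cluster 7, and 16 of its 27 control UMIs came from 1 cell. Col6a2 likewise had 58.1 against 41.0 and 27.7 against 17.2, with 20 of 35 Keap1_cKO UMIs in 1 cell. Col8a1 had 20.6 in both clusters of the control library and 14.2 (8.44 to 22.5) against 28.2 in the Keap1_cKO library.

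**Figure D5:**
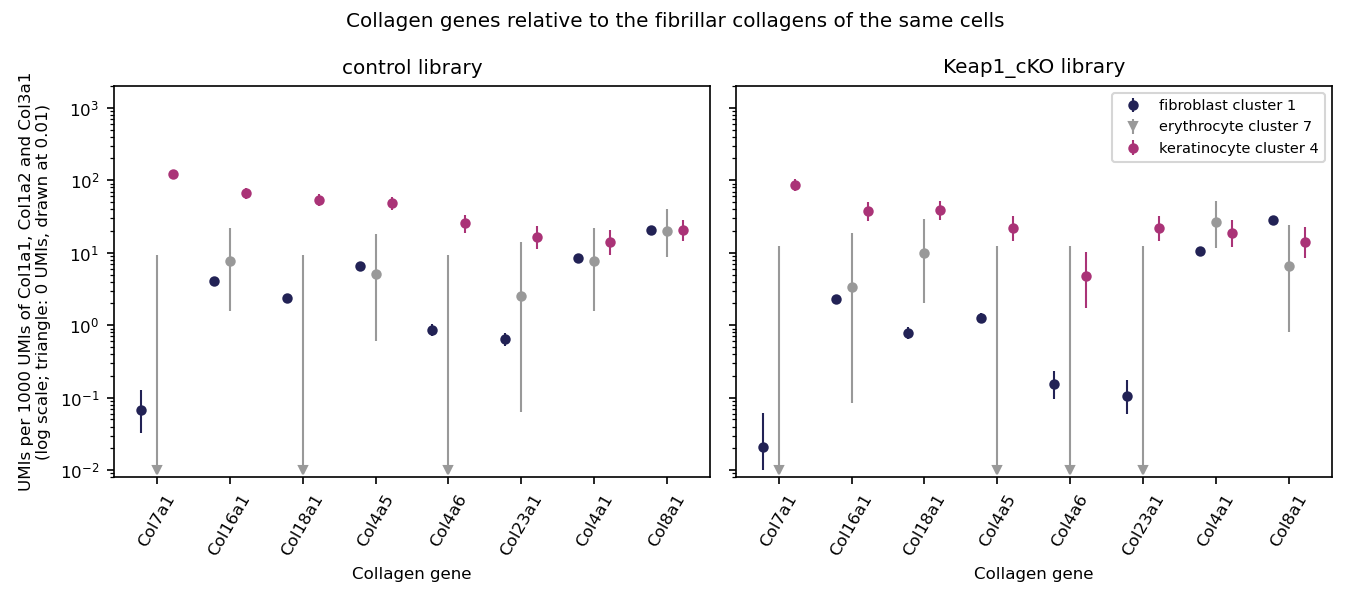
UMIs of 8 collagens per 1000 UMIs of Col1a1, Col1a2 and Col3a1 in the same cells, on a logarithmic axis, for fibroblast cluster 1, erythrocyte cluster 7 and keratinocyte cluster 4 of each library; bars are 95% Poisson intervals on the UMIs of the gene, drawn down to 0.01 at the lowest, and triangles mark 0 UMIs. Col7a1 lies highest in cluster 4 in both libraries, whereas for Col4a1 and Col8a1 the intervals of clusters 4 and 7 overlap.

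In keratinocytes Col7a1, the anchoring fibril collagen, was at 35.4 and 42.1 CPM in cluster 4 (230 and 110 UMIs, log2 0.25, −0.09 to 0.58), within counting error. Col4a5 was at 14.2 and 10.7 CPM (log2 −0.40), and Col4a6 at 7.39 and 2.30 CPM (48 and 6 UMIs, log2 −1.69, −3.20 to −0.46). Col16a1 and Col18a1 had log2 ratios of −0.10 and 0.26. Col23a1 was higher, 4.77 and 10.7 CPM (31 and 28 UMIs, log2 1.17, 0.38 to 1.95). Of the 20 collagens counted in cluster 4, 7 were higher and 4 lower, beside 18.9% and 18.2% of all genes. For 6 of the 20 (Col1a2, Col4a1, Col5a3, Col6a1, Col6a2 and Col6a5) 1 cell held most of the UMIs of a library, and of the 14 others 3 were higher and 3 lower. Col6a5 had 1 and 32 UMIs there, 31 of them in 1 cell.

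Over all epithelial cells (848 and 422), collagen made up 0.0498% and 0.0862% of UMIs (log2 0.79, 0.74 to 0.84), and 13 of 22 counted members were higher and 3 lower (17.5% and 15.8% of all 12638 genes). The 13 include Col5a3 and Col6a5, each carried mostly by 1 cell. These values changed with the choice of cells. When cells with UMIs of 3 or more fibroblast markers were left out (533 and 329 cells remained), the log2 ratio was 0.073, with 2 members higher and 9 lower. With each cell weighted equally it was 0.19, with 7 and 7. The share of all genes was not counted in either setting, so these counts have no background beside them. In epithelial cluster 13, 3 of 61 Keap1_cKO cells held 2698 of 3665 collagen UMIs and all 6 fibroblast markers. Col4a6 had 73 and 10 UMIs over all epithelial cells (log2 −1.98, −3.10 to −1.02) and a log2 ratio of −2.58 without the cells that carry 3 or more fibroblast markers.

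In myeloid cluster 2 collagen made up 0.0457% and 0.0510% of UMIs, and in T cell cluster 3 0.0369% and 0.0658%. Erythrocyte cluster 7 held 0.0283% and 0.0308%. Counted per cell, collagen UMIs were 4.80 and 3.47 in cluster 2, 2 and 5.60 in cluster 3, and 3.05 and 3.11 in cluster 7. By that measure the control cells of cluster 3 lay below the erythrocytes, so a higher share alone does not place a cluster above the background. The counted genes were mostly those abundant in fibroblasts. Col4a1, highest in endothelium, had 19 and 26 UMIs in cluster 2 and 0 and 40 in cluster 3. Col4a2 had 0 and 26 UMIs in cluster 3. The libraries were of unlike size there, with 59 control cells (320202 UMIs) and 378 Keap1_cKO cells (3218498 UMIs), so raw counts are not levels. Col6a1 was lower in both clusters 2 and 3, at 31.5 and 9.49 CPM in cluster 2 (log2 −1.73) and 28.1 and 9.01 CPM in cluster 3 (log2 −1.64). In cluster 2 Col14a1 was at 19.7 and 9.91 CPM. Both genes were also lower in the erythrocytes of cluster 7, the background, so this is not particular to myeloid or T cells. Col6a1 had 34 and 7 UMIs there and Col14a1 25 and 8, of 1916273 and 1209447 UMIs in all. In cluster 3, Col1a2 was at 28.1 and 116 CPM (9 and 373 UMIs), Col5a2 had 1 and 74 UMIs and Col6a2 had 2 and 53. Single cells took part in these sums: 1 Keap1_cKO cell of cluster 3 carried all 6 fibroblast markers and 290 of 2118 collagen UMIs, and 1 control cell of cluster 2 carried 5 of the markers and 187 of 812. Without the most collagen-rich cell of each library the share in cluster 2 was 0.0356% (control) and 0.0507% (Keap1_cKO), and that in cluster 3 was 0.0360% and 0.0570%. Col6a1 then had log2 ratios of −1.39 and −1.60, Col14a1 was at 18.8 and 9.96 CPM in cluster 2, and in cluster 3 Col1a2 had 9 and 319 UMIs, Col5a2 1 and 70, and Col6a2 2 and 48. With those cells left out, the lower bounds of the log2 ratios in cluster 3 were −0.022 for Col4a1, −0.90 for Col4a2 and −0.70 for Col6a2. For Col1a2 and Col5a2 they were 0.85 and 0.25. The part of free RNA in these ratios was not tested.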

How the data were processed

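The members, role lists and gene lists were chosen with earlier results of these data known. For these droplet 3′ libraries the submitters' processing notes name the mm10 build, Seurat 4.0.2, Cell Ranger 6.0.1 and R 4.1.1, with no role, parameter or annotation. In the deposited table each value is the natural log of UMIs scaled to 10000 per cell plus 1, as the values themselves show. Whole UMIs were recovered from the step of each of the 4853 cells, with 100% whole within 0.01. Clusters and cell types are the authors' deposited annotation. UMIs were summed per cluster and library and scaled to 1000000 (CPM). Poisson, conditional binomial and Clopper-Pearson intervals are exact at 95%. A sum of 0 counts as 3 when a bound is given. Gene ratios were read with at least 20 UMIs over both libraries in a cluster. Genes were named by a fixed rule (the 3 most abundant of each of 8 roles, and up to 4 per direction with at least 50 UMIs and 1.5-fold; the 2 most abundant and 2 most different genes of each folding, processing and receptor list in clusters 1 and 5), and other members appear so that each is accounted for. Cells per library had 500 to 100520 UMIs. Cells were thinned to 1000 UMIs for shares. Python 3.11.15, NumPy 2.4.6, SciPy 1.17.1, pandas 2.3.3 and matplotlib 3.10.9 were used, and the calculations were tested on simulated data. Alternatives were other scalings, cell filters, a higher count floor and subtraction of the erythrocyte level.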

Additional observations from a re-analysis of the deposited data

Results flagged for a closer look

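4 collagens differed in direction between cell classes, each at least 1.5-fold with counting intervals away from 0, and the differences were not tested. Col23a1 had a log2 ratio of 1.17 in keratinocyte cluster 4 and −2.13 in fibroblast cluster 5 (difference 3.30). Col14a1 was higher in cluster 13 and lower in myeloid cluster 2 (difference 2.68), Col6a1 likewise (2.46), and Col6a3 was higher in cluster 13 and lower in cluster 4 (2.72). In cluster 13 the last 3 had ratios that the 3 Keap1_cKO cells with all 6 fibroblast markers carried: without them the log2 ratios were 0.12, −1.27 and −0.24. In cluster 4 Col6a3 had a log2 ratio of −0.48 (−1.54 to 0.47) without cells with all 6 markers. Without the most collagen-rich cell of each library it was −1.97 (−3.47 to −0.76). Col14a1 and Col6a1 were also lower in erythrocyte cluster 7, with 25 and 8 and with 34 and 7 UMIs, so that their lower level is not particular to cluster 2.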

How the results depend on the processing

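No paired analysis was possible because each genotype has 1 library and the labels give no replicate numbers. The log2 ratio of the collagen share was 1.07 with each cell weighted equally and 1.14 with median-of-ratios scaling in cluster 1, and 1.24 with that scaling in cluster 5. In endothelial cluster 8 it was 2.05 with each cell weighted equally, 1.73 with median-of-ratios scaling, 2.26 with the erythrocyte level subtracted, 1.57 without cells with 3 or more fibroblast markers and 1.66 without cells with all 6. In epithelial cells it was 0.19 with each cell weighted equally, 1.14 with the erythrocyte level subtracted, 0.073 and 0.51 without the 2 sets of marker cells, and 0.53 in cluster 4 alone. That last ratio was −0.025 without the most collagen-rich cell of each library, and those of clusters 2 and 3, 0.16 and 0.84, were 0.51 and 0.66. Members higher in epithelial cells numbered 7, 2 and 7, and members lower 7, 9 and 4, with each cell weighted equally, without cells of 3 or more markers and in cluster 4 alone. With the floor at 50 UMIs, 1 member was lower in cluster 5, and in cluster 8 members lower numbered 1 under median-of-ratios scaling and 2 without either set of marker cells. Except for cluster 4 alone, the share of all genes was not counted under these settings, so these member counts have no background beside them. The share in clusters 1 and 5 was 96.7% and 92.9% with all annotated fibroblasts, 83.1% and 67.1% with each cell weighted equally, and 94.9% and 92.0% without cells under 1000 UMIs. Col6a1 in epithelial cells had a log2 ratio of 0.18 after subtraction of the erythrocyte level, from −0.59. Leaving out members carried mostly by 1 cell moved no count in clusters 1, 5 and 8 or epithelial cells by over 1.5 times. Leaving out cells with all 6 markers, the richest cells or those members, and taking cluster 4 alone, were chosen after seeing the data. The cause of these moves was not tested. Of 122 alternative gene ratios, 106 stayed within the main counting interval. Among alternative ratios of the summed collagen share, whose intervals are narrower, 9 stayed within it, 14 moved out of it and 1 changed sign. The 6 alternative shares of collagen UMIs in clusters 1 and 5 moved out of theirs. With 1 library per genotype no replicate could be left out, and no result here separates genotype from library.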
